A study of Homo sapiens with 24 samples.

Results

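The 2 arms of a HEPACAM2 CRISPR experiment in DMS454, a cell line labelled as small cell lung cancer, were compared by RNA sequencing. All 3 libraries of each arm entered the comparison, which makes 6 of the 24 libraries of the study. The arms are called here by their codes in the deposited table, G2 and pL, and no label says what these codes stand for. The titles call the G2 libraries control, with the genotype WT, and the pL libraries CRISPR, with the genotype HEPACAM2 knockdown. HEPACAM2 mRNA was lower in G2 than in pL, which goes against those titles. The labels name no guide, no vector and no clone, and do not say whether an arm is a pool of cells or 1 clone. The replicates are described as independent biological ones. Another small cell line with the same kind of arms, NCI-H1694 (H1694 below), had 3 libraries coded G6, titled control with the genotype WT, and 3 coded pL, titled CRISPR with the genotype HEPACAM2 knockdown. Its own difference, G6 minus pL, is set beside some DMS454 values.

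HEPACAM2 is a member of the immunoglobulin superfamily of cell adhesion molecules and a relative of HEPACAM, the hepatic and glial adhesion molecule. It is also known as MIKI, a protein of the Golgi apparatus that moves to centrosomes in mitosis. Small cell lung cancer is a neuroendocrine tumour in which transcription factors such as INSM1 and NEUROD1 drive the expression of granule, synaptic and neuronal genes. The title of the study names cell-matrix interactions, and the arms ask which genes differ with the level of HEPACAM2.

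Levels are normalized counts, that is read counts divided by the size factor of the library. Changes are log2 values of G2 minus pL from limma on log2(normalized count + 1), so a positive change means higher in G2. A gene was called where its adjusted p was under 0.05, and arms were said not to overlap where all 3 libraries of one lay above all 3 of the other. Total reads were 15652553 to 28123558 in G2 and 19009836 to 30241598 in pL. INSM1, a neuroendocrine transcription factor, had 24724 to 25302 normalized counts in G2 and 23315 to 24583 in pL, so this marker of the labelled cell type was present in every library. POU2F3, the factor of tuft-like small cell cancers, reached at most 2.22 normalized counts in any library. Of the markers of other cells, KRT5, SCGB3A1, SCGB3A2 and SFTPA1 of the airway, PDPN of fibroblasts and CD3D, CD3E and HBA1 of blood were at 0 in all 6 libraries. The summed markers of airway epithelium, mostly the ciliary factor FOXJ1, ran from 1201 to 1249 in G2 and from 861 to 958 in pL. Those of fibroblasts, mostly FAP, ran from 385 to 409 in G2 and from 279 to 347 in pL. Endothelial markers ran from 406 to 444 in G2 and from 293 to 578 in pL, and blood markers from 40.7 to 55.5 in G2 and from 49.97 to 69.4 in pL. Their part in the results was not tested. In bulk RNA, fewer cells of a type and less RNA per cell cannot be told apart.

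One library stood apart from its arm. Across genes, pL 3 correlated with pL 1 and pL 2 at 0.9903 and 0.98863, while pL 1 and pL 2 correlated at 0.99371 and the G2 libraries among themselves at 0.99035 to 0.99295. It was also nearer to G2, at 0.9853 to 0.98759, than pL 1 and pL 2, which reached at most 0.98571. In 63.9% of all called genes pL 3 was the pL library nearest to the G2 mean, against 18.3% for pL 1 and 17.8% for pL 2. IFI6, an interferon-induced gene, shows the size this could take. It had 1965, 1579 and 1831 normalized counts in G2 and 5385, 5833 and 1507 in pL, so that pL 3 lay below all G2 libraries and the gene was not called (adjusted p = 0.35). What sets pL 3 apart is not given in the labels. Values without it are given below for some calls and counts only, and others also change when it is left out.

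The regions just before the annotated starts of the targeted gene and of the gene with the largest rise are shown first, because both differed between the arms. They are 250 bases long, come from RefSeq on GRCh38.p14, and run 5′ to 3′ on the strand of the gene. Capitals mark CAGCTG, an E-box of the kind bound by basic helix-loop-helix factors, which reads the same on both strands.
EPHA3, chr3:89107371-89107620, plus strand: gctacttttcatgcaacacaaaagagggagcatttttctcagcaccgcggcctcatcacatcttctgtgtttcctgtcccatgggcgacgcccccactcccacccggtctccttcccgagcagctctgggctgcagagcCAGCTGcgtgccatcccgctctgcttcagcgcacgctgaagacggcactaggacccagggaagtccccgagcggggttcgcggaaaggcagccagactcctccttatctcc
HEPACAM2, upstream start, chr7:93232199-93232448, minus strand: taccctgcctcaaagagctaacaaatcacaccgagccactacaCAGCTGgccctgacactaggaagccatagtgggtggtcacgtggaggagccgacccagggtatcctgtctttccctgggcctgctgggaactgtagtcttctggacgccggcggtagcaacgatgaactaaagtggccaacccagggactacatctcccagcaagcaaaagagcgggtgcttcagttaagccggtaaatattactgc
HEPACAM2, downstream start, chr7:93219572-93219821, minus strand: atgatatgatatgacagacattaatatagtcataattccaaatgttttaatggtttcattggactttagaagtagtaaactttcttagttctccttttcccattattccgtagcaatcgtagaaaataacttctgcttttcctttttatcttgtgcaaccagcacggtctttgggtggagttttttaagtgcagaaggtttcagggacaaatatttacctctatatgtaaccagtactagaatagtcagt
The motif occurred once before EPHA3, once before the upstream HEPACAM2 start and not before the downstream one. It occurred in 14% of the 35116 promoters of the same table, so a match is a description of these letters only.

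HEPACAM2 mRNA was present in every library and lower in G2. The gene lies at chr7:93188586-93226524 on the minus strand (GRCh38, GENCODE 29). It had 6430, 6543 and 6677 normalized counts in G2 and 11460, 11256 and 10844 in pL. The libraries of each arm lay close together, the arms did not overlap, and the level in G2 was 0.586 of that in pL. Behind these values were 4736, 8486 and 4802 reads in G2 and 13777, 10137 and 15000 reads in pL, so counting error was small. The change was -0.77 (SE 0.04, adjusted p = 1.6e-07). The authors' deposited table gives a log2 fold change of -0.77 with an SE of 0.052, taken in the same direction. On the log2 scale pL 3 lay 8.40% of the way from pL 1 and pL 2 towards G2 for this gene. In H1694 the gene had 3433, 3551 and 3688 normalized counts in G6 and 10124, 10545 and 10399 in pL, a change of -1.54 in its own table. Both lines therefore carried more HEPACAM2 mRNA in the libraries titled CRISPR.

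Genes next to HEPACAM2 were in part lower in G2 as well. Of 41 protein-coding genes tested within 5 Mb of its start, 11 were called lower and 1 higher in G2, with a median change of -0.13. Over all 18868 genes tested, 9.15% were called lower and 9.72% higher in G2, with a median of 0.00. GNG11, a G protein gamma subunit, averaged 98.7 normalized counts in G2 and 264 in pL (change -1.41). TFPI2, a secreted inhibitor of matrix-degrading proteases, averaged 689 in G2 and 1286 in pL (change -0.89). CDK6, a kinase of G1 progression, averaged 1279 in G2 and 2106 in pL (change -0.72), and ANKIB1, a ubiquitin ligase, 1523 in G2 and 2201 in pL (change -0.53). PDK4, which inhibits pyruvate dehydrogenase, averaged 1583 in G2 and 2245 in pL (change -0.51). The genes closest to HEPACAM2 were not among the called ones. VPS50 on one side had a change of -0.14 (adjusted p = 0.12), and SAMD9L and SAMD9 on the other had changes of 0.23 and -0.11 (adjusted p = 0.37 and 0.58). CDK14, further out, was higher in G2 (change 0.57). In H1694, CDK6 had a change of 0.28, opposite to that in DMS454 (the difference between the lines was not tested).

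Across the transcriptome 1834 genes were called higher in G2 and 1726 lower, which is 18.9% of the genes tested. The arms did not overlap in 6914 genes (36.6%). Most changes were small: 347 called genes (1.84%) changed at least 2-fold, of which 205 were higher and 142 lower in G2. Without pL 3 the calls came to 3446 higher (18.2%) and 3159 lower (16.7%). Counts of list members without pL 3 given below stand beside these shares. Those with all libraries stand beside 9.72% higher and 9.15% lower. No list was tested against these shares. Of the 3560 genes called with all libraries, 3521 were called in the same direction without pL 3 and 0 in the opposite one. Leaving out any one of the other 5 libraries gave between 1017 and 1283 higher and between 947 and 1050 lower genes. No gene was called with a mean under 10 in one arm and of at least 100 in the other.

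Genes lower in G2 included a monoamine transporter, a cell death gene and secreted proteins, which are given first for their level and are not the largest falls by change. SLC18A2 (chr10:117241073-117279430), which loads monoamines into secretory vesicles, had 986, 1026 and 1008 normalized counts in G2 and 2978, 2863 and 3185 in pL. The arms lay 3-fold apart with no overlap (change -1.58, SE 0.05, adjusted p = 7.7e-09). BIK (chr22:43110748-43129712), a BH3-only protein that promotes apoptosis, averaged 417 ± 8.07 in G2 and 1602 ± 199 in pL (SD, n = 3 each; change -1.93, SE 0.08, adjusted p = 4.3e-08). SYT4, a synaptotagmin of secretory vesicles, had 5190, 5495 and 5414 in G2 and 9613, 9518 and 9198 in pL (change -0.82). NPTX1, a neuronal pentraxin, averaged 1143 ± 22.2 in G2 and 2597 ± 122 in pL (change -1.18). IGFBP3, a carrier of insulin-like growth factors, averaged 3014 ± 150 in G2 and 6052 ± 1164 in pL (change -0.99). RASSF10, a Ras association domain gene, averaged 2259 in G2 and 3990 in pL (change -0.82).

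APOA2, a lipoprotein component, averaged 50.9 ± 8.15 in G2 and 334 ± 181 in pL (change -2.58, adjusted p = 0.0027), with a wide spread within pL. It was the largest fall by change among the genes named. APOA1 averaged 27.8 in G2 and 76.4 in pL (change -1.44), and FGB, the fibrinogen beta chain, 176 in G2 and 492 in pL (change -1.47). The remaining falls covered membrane proteins. CLDN1, a tight junction claudin, had a change of -1.94, OXTR, the oxytocin receptor, -1.73, ADCY2, an adenylyl cyclase, -1.86, and TMPRSS4, a membrane serine protease, -1.71. RIT2, a small GTPase of neurons, had a change of -1.96, TRDN, triadin, -1.79, and CALB2, the calcium-binding protein calretinin, -1.45. PAGE5 and PNMA3, on chromosome X, had changes of -2.18 and -2.48. Both belong to families of similar genes, so the assignment of reads to them is uncertain. The call of PNMA3 was lost with edgeR (adjusted p = 0.083), with no filter and without G2 1 or G2 3.

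The largest rise was that of EPHA3 (chr3:89107524-89482134, plus strand), a receptor of the Eph family of guidance receptors. It had 128, 133 and 114 normalized counts in G2 and 5.82, 16.7 and 12.3 in pL. All G2 libraries lay far above all pL libraries, and the change was 3.42 (SE 0.31, adjusted p = 2.0e-05). In H1694 it averaged 71.0 in G6 and 31.9 in pL (change 1.18, called). AZGP1 (chr7:99966720-99976157), a secreted zinc-binding glycoprotein, had 3123, 2733 and 2738 in G2 and 799, 731 and 920 in pL (change 1.81, adjusted p = 4.1e-07). MDK (chr11:46380756-46383837), midkine, a heparin-binding growth factor, had 3125, 3049 and 3101 in G2 and 1373, 1299.1 and 1499 in pL (change 1.16). TAGLN2, an actin-binding protein, had 3462, 3509 and 3509 in G2 and 1446, 1463 and 1722 in pL (change 1.18). In each of these 3 genes the lowest G2 library had more than 2 times the highest pL library.

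AOC1, the diamine oxidase that degrades histamine, averaged 1838 in G2 and 600 in pL (change 1.61). MS4A8, a tetraspan membrane protein, averaged 1059 in G2 and 332 in pL (change 1.69). TFF3, a trefoil peptide of mucosal secretions, averaged 4635 ± 267 in G2 and 2467 ± 514 in pL (change 0.93), and SLC38A11, an amino acid transporter, 3037 in G2 and 1657 in pL (change 0.87). CNTNAP2, a neuronal adhesion molecule of the neurexin group, had a change of 0.86. Among less abundant rises, ABHD12B had a change of 2.11, MPZL2, an adhesion molecule of the immunoglobulin type, 1.95, ASIC4, of the acid-sensing ion channel family, 1.86, and GFRA3, the coreceptor of artemin, 1.77. TCERG1L had a change of 1.74, EPDR1 1.68, GNG2, a G protein gamma subunit, 1.61, the tetraspanin CD9 1.60, and the RNA-binding protein MSI1 1.58. CYP4F3, a fatty acid hydroxylase, averaged 3092 in G2 and 1352 in pL (change 1.24), and TRIM16L averaged 2309 in G2 and 1242 in pL (change 0.92). Both have close paralogs, and the call of CYP4F3 was lost with no filter and when any library other than pL 3 was left out (its values in pL were 1140, 1065 and 1851). The call of TIMP1, an inhibitor of matrix metalloproteinases (change 1.61), was lost when any 1 G2 library was left out. Of the 15 largest rises, 9 were tested in H1694, where 4 were called higher and 1 lower in G6, while 8.9% of all genes tested in that line were called higher and 8.73% lower (17.6% in either direction). Of the 15 largest falls, 5 were tested there, with 1 called higher and 1 lower. Of 138 genes named in the text and tested in both lines, 34 had arms that did not overlap in either line and opposite directions. Over all genes tested in both lines, 14.9% had arms that did not overlap in either, and 7.77% also had opposite directions. The named genes were mostly chosen for their DMS454 change, so nothing is read from this count.

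**Figure D1:**
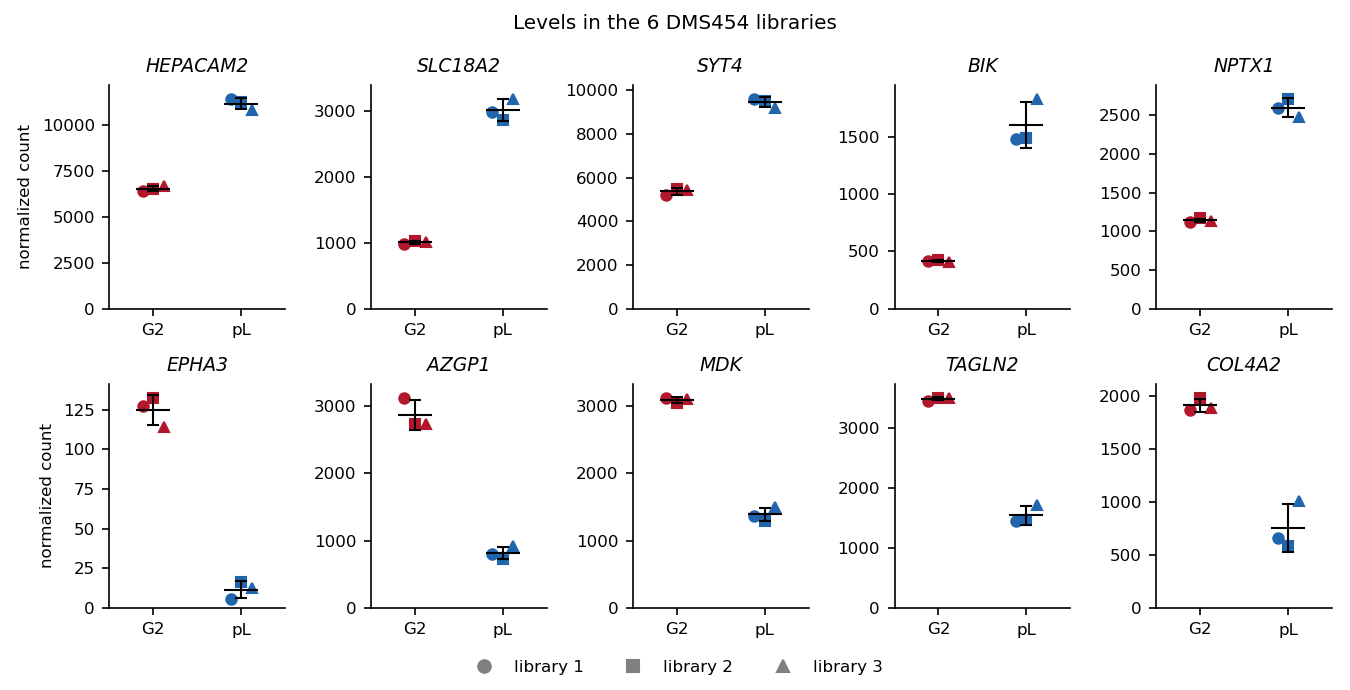
Normalized counts (vertical axes, each from 0) of 10 genes in the 3 G2 and 3 pL libraries of DMS454; symbols are libraries 1 to 3, and the black bars are the mean and SD of each arm. The upper row shows genes lower in G2, such as HEPACAM2 at 6430 to 6677 in G2 and 10844 to 11460 in pL, and the lower row genes higher in G2, such as AZGP1 at 2733 to 3123 in G2 and 731 to 920 in pL; in COL4A2 the triangle of pL 3 lies above the other pL libraries.

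The changes were not spread evenly over the genome. Runs of neighbouring genes shifted together, and among the stretches described here the median change was furthest from 0, apart from a group of 9 genes given below, at the start of chromosome 3. Of 97 tested genes in its first 20 Mb, 75 were called lower and 1 higher in G2, and the arms did not overlap in 80. Their median change was -0.66, so the middle gene of this stretch had 0.633 of its pL level in G2. For comparison, 9.15% of all tested genes were called lower, against 77.3% here. The lower and upper quartiles of their changes were -0.83 and -0.54, a narrow range. The stretch was found by ordering genes along the chromosomes after their changes were known, so these counts describe it and are not a test.

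Genes of unrelated roles took part, and the ones named here were chosen after their values were seen. VHL, the substrate receptor of the ubiquitin ligase that degrades hypoxia-inducible factors, averaged 1075 in G2 and 1528 in pL (change -0.50). The DNA repair genes FANCD2, XPC and OGG1 had changes of -0.57, -0.60 and -0.60. ARPC4, a subunit of the actin-nucleating Arp2/3 complex, averaged 933 in G2 and 1704 in pL (change -0.86). CRBN, the cereblon subunit of a ubiquitin ligase, averaged 341 in G2 and 597 in pL (change -0.80). SETD5, a chromatin regulator, had a change of -0.68, RAB5A, a GTPase of early endosomes, -0.74, and the ribosomal protein gene RPL32 -0.76. IQSEC1, a guanine nucleotide exchange factor, averaged 1350 in G2 and 2387 in pL (change -0.82). OXTR, named above among the largest falls, lies in the same stretch. Members with little change were few among genes of moderate level, such as SH3BP5 at -0.06 and IL17RE at 0.11, neither of them called.

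The edge of the stretch could be followed gene by gene. Just beyond 20 Mb, KAT2B and SGO1 had changes of -0.43 and -0.26 (adjusted p = 0.051 and 0.0997), and UBE2E2 was higher in G2 (change 0.73). From 23.8 to 25.6 Mb, 6 tested genes in a row were called lower in G2. The first 5 were UBE2E1 (change -0.82), NKIRAS1 (-1.05), RPL15 (-0.79), NR1D2 (-0.69) and THRB (-1.16). RPL15, a ribosomal protein gene, had 7440, 7300 and 7368 normalized counts in G2 and 13722, 13551 and 11017 in pL. The last of the 6, TOP2B at 25.6 Mb, changed by less (change -0.18, adjusted p = 0.036). NGLY1 and OXSM after it were not called (changes -0.08 and 0.15). From 20 to 80 Mb the median of 318 genes was -0.03, and from 90 Mb to the end that of 573 genes was 0.07. Between 80 and 90 Mb lay 9 tested genes, too few for the threshold on bins below, of which 7 were higher and 0 lower in G2. EPHA3 is one of them, as are VGLL3, a cofactor of TEAD factors (change 1.60), CGGBP1, a binder of CGG repeats (2337 in G2 and 1243 in pL, change 0.92), and CHMP2B, a membrane scission protein (change 0.88). In H1694 4 of 8 genes there were called higher and 0 lower in G6, with a median of 0.50, and VGLL3 had a change of 1.29 there.

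**Figure D2:**
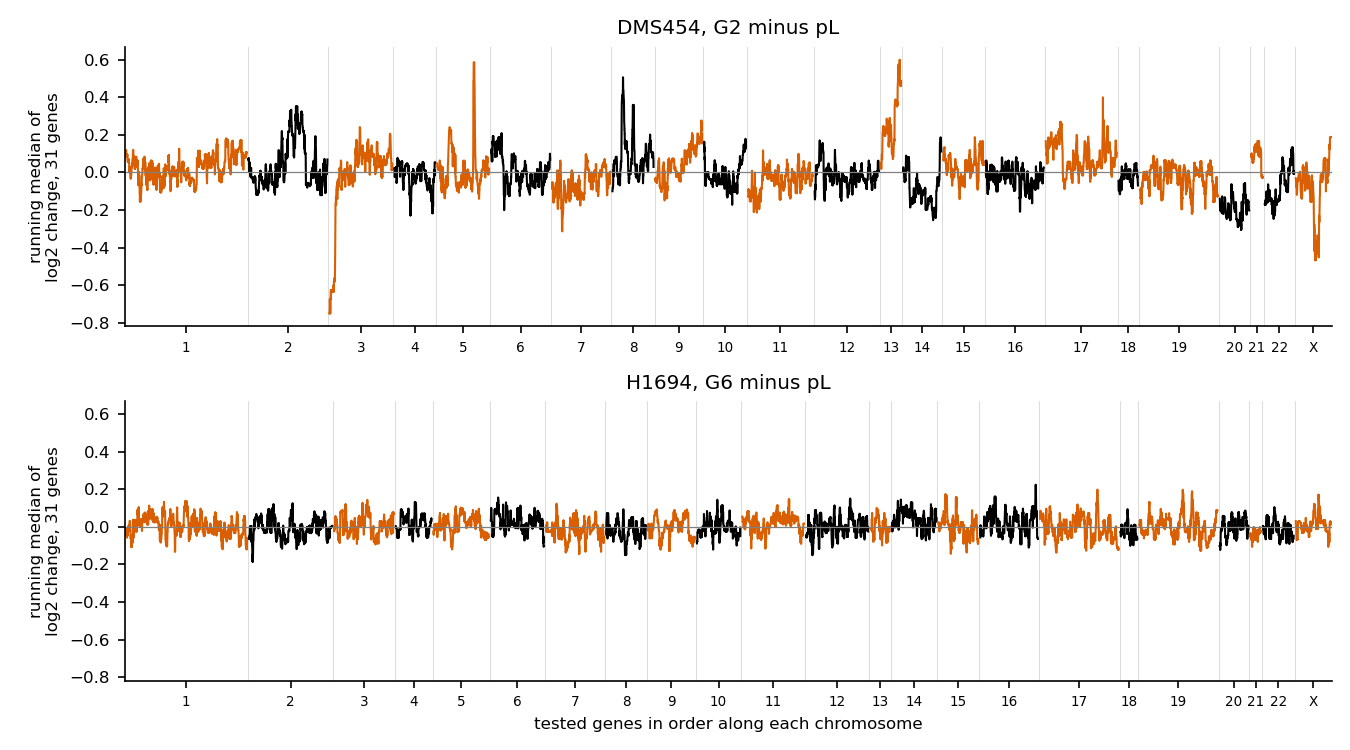
Running median of the log2 change over 31 neighbouring tested genes (vertical axis) along gene order on chromosomes 1 to 22 and X (horizontal axis, alternating colours), for DMS454 (G2 minus pL, above) and H1694 (G6 minus pL, below). In DMS454 the start of chromosome 3 drops below -0.6 and the end of chromosome 13 climbs, while the H1694 line stays near 0.

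Dividing every chromosome into bins of 10 Mb gave 278 bins with at least 20 tested genes. Their median changes ran from -0.74 to 0.52, and the central 90% of bins from -0.16 to 0.19. In 8 bins the median was at least 0.3 from 0, a threshold chosen after the values were seen. The 3 lower ones were the first 2 bins of chromosome 3 and 1 of chromosome X. The 5 higher ones were 3 at the end of chromosome 13, 1 on chromosome 2 and 1 on chromosome 8. In H1694 the medians of 262 bins ran from -0.19 to 0.16, and 0 reached the threshold. The difference between the lines was not tested, since their tables were normalized separately. DNA of these cells was not analysed here.

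At the end of chromosome 13, from 90 Mb on, 55 of 115 tested genes were called higher and 1 lower in G2, with a median change of 0.46. COL4A2 and COL4A1, the neighbouring genes of the main basement membrane collagen chains, showed larger changes than the stretch. COL4A2 had 1863, 1980 and 1888 normalized counts in G2 and 660, 587 and 1010 in pL. The change was 1.38 (SE 0.21, adjusted p = 0.010), and its call was lost without pL 1. COL4A1 averaged 153 in G2 and 69.5 in pL (change 1.14). GAS6, a ligand of TAM receptors, averaged 1065 in G2 and 520 in pL (change 1.08). Genes nearer the median of the stretch were IPO5, a nuclear import receptor (7938 in G2 and 6081 in pL, change 0.39), TFDP1, the partner of E2F factors (8708 in G2 and 5738 in pL, change 0.62), and ARHGEF7, a guanine nucleotide exchange factor of Rac (4897 in G2 and 3480 in pL, change 0.51). Over all of chromosome 13 the median of 342 genes was 0.26, with 31% called higher and 2.05% lower.

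Chromosome 20 was lower along its whole length, by less. Of 481 tested genes 165 (34.3%) were called lower and 26 (5.41%) higher in G2, with a median of -0.19. E2F1 and GINS1, genes of DNA replication, FERMT1, a kindlin that activates integrins, MMP24, a membrane metalloproteinase, and CHGB, chromogranin B, lie on this chromosome and were lower in G2 (changes -0.25, -0.26, -0.54, -0.82 and -0.27). The call of FERMT1 was lost without pL 1 or any 1 of the G2 libraries. On chromosome X from 100 to 110 Mb, 29 of 62 genes were lower and 2 higher, with a median of -0.40. They include BEX1, an adaptor of neurotrophin receptor signalling (2232 in G2 and 3517 in pL, change -0.66), BEX3 (change -0.66) and TCEAL4 (change -0.50). On chromosome 8 from 30 to 40 Mb, 20 of 63 genes were higher and 0 lower, with a median of 0.38. FGFR1, a fibroblast growth factor receptor, had 3607, 3647 and 3625 in G2 and 2255, 2276 and 2398 in pL (change 0.65). Its neighbours NSD3, a histone methyltransferase, EIF4EBP1, a repressor of translation, and ASH2L, a subunit of histone methyltransferase complexes, had changes of 0.38, 0.54 and 0.54. On chromosome 2 from 120 to 180 Mb, 98 of 260 genes were higher and 6 lower, with a median of 0.23. Genes in the 8 bins and on chromosomes 13 and 20 together were 1088, or 5.77% of those tested. They held 9.21% of the higher and 16% of the lower calls, and 17.5% of the other 17780 genes were still called. Those other genes still include most of the chromosome 2 stretch, of which only the bin from 130 to 140 Mb is among the 8. They also include the groups of chromosome 3 described above beyond its first 20 Mb.

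**Figure D3:**
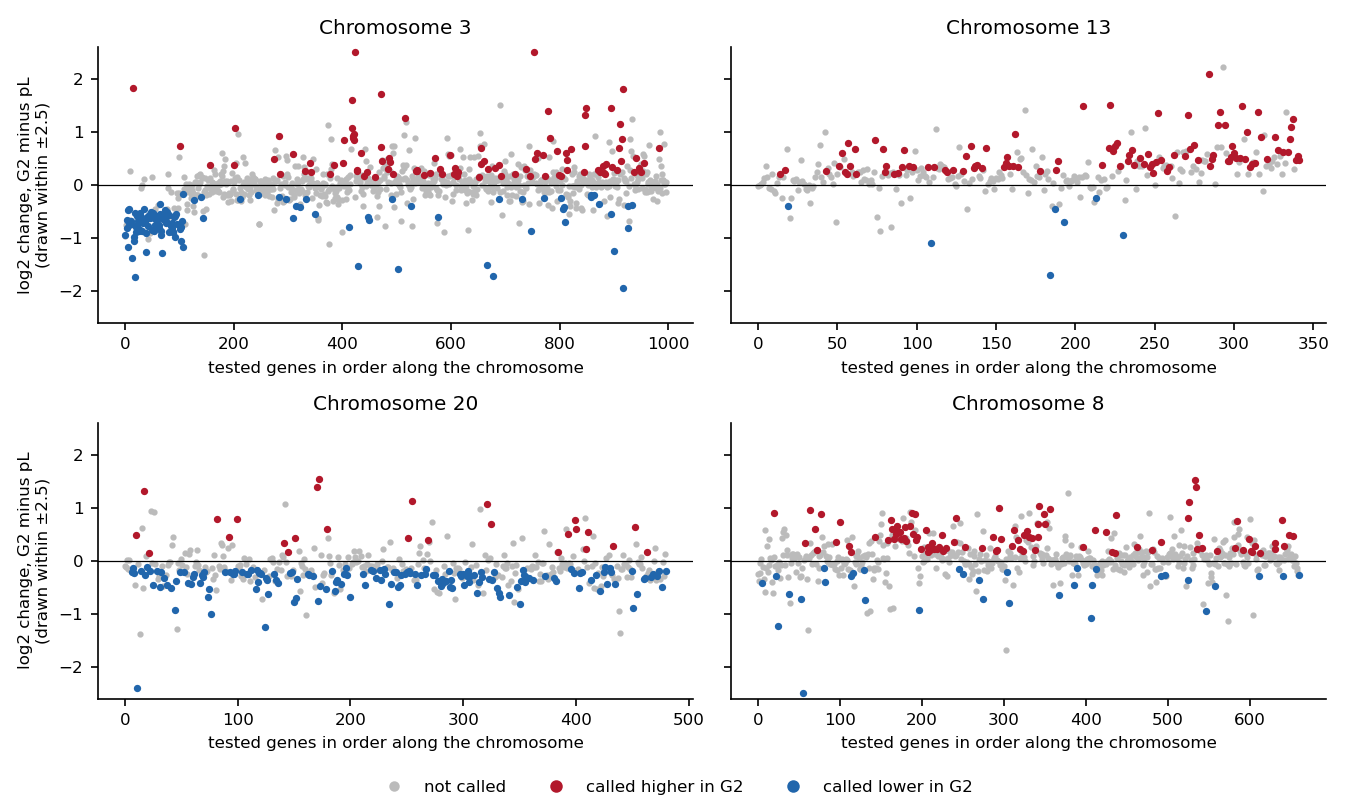
Log2 change (G2 minus pL, vertical axis, drawn within ±2.5) of each tested gene in order along chromosomes 3, 13, 20 and 8; coloured points are called genes. On chromosome 3 the first 97 genes form a band around -0.66, and chromosome 20 has 165 genes called lower against 26 higher over its whole length.

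The shifts were seen in all libraries of an arm, but pL 3 was intermediate. The median deviation of the 97 genes at the start of chromosome 3 from their mean over the 6 libraries was -0.32, -0.33 and -0.33 in G2 and 0.41, 0.43 and 0.18 in pL (log2). The pL 3 library thus lay 32.2% of the way from pL 1 and pL 2 to G2. At the end of chromosome 13 the deviations were 0.22, 0.26 and 0.25 in G2 and -0.33, -0.34 and -0.02 in pL, which put pL 3 54.9% of the way. It lay 47.6% of the way on the chromosome X stretch, 46.6% on that of chromosome 8, 27.3% over chromosome 20 and 23% on that of chromosome 2. For HEPACAM2 itself, as given above, it lay 8.40% of the way.

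**Figure D4:**
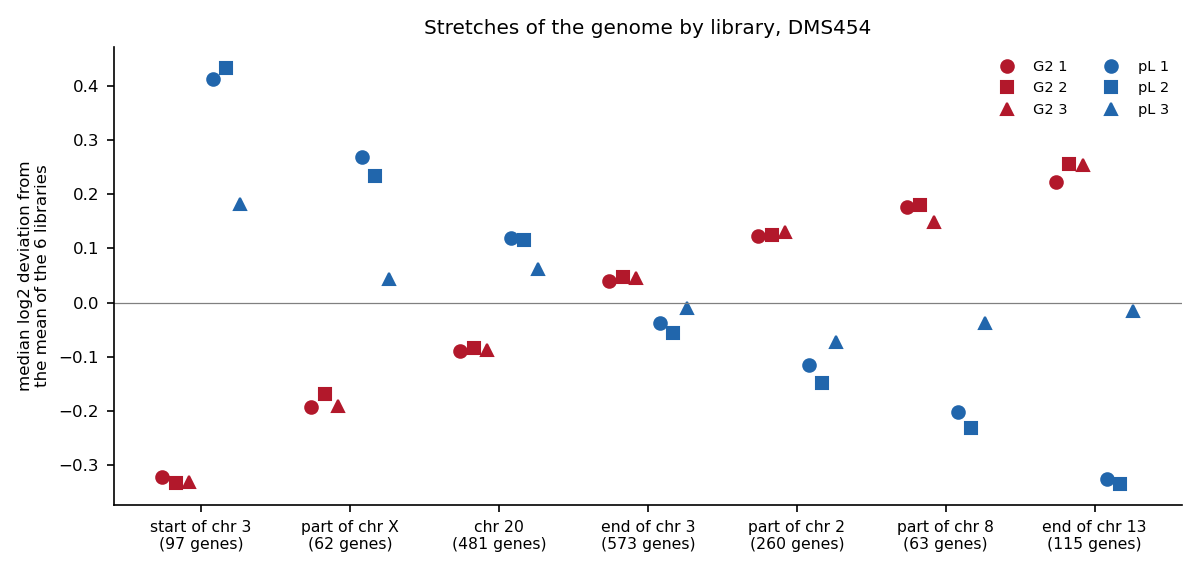
Median log2 deviation of the genes of 7 stretches from their mean over the 6 libraries (vertical axis), for each G2 (red) and pL (blue) library. The G2 libraries lie together in every stretch, and pL 3 (blue triangle) lies between the G2 libraries and pL 1 and pL 2.

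Several neuroendocrine lineage genes were not called. INSM1 had a change of 0.06 (adjusted p = 0.27), SYP, synaptophysin, of 0.05 (adjusted p = 0.52) and DLL3, a Notch ligand of neuroendocrine cells, of -0.03 (adjusted p = 0.72). Of 30 tested lineage transcription factors, 5 were higher and 5 lower in G2, with a median of 0.06 (all tested genes: 9.72% higher, 9.15% lower). NEUROD1, a driver of a small cell subtype, averaged 68.2 in G2 and 113 in pL (change -0.71). YAP1, a Hippo pathway cofactor, averaged 264 in G2 and 384 in pL (change -0.54), and OTX2, a homeobox factor, 290 in G2 and 150 in pL (change 0.98). MYC and MYCL moved in opposite directions, with changes of 0.25 and -0.37. The calls of NEUROD1 and MYCL were each lost when 1 library other than pL 3 was left out.

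Granule and synaptic genes went both ways, 12 higher and 8 lower of 46 tested, with a median of -0.04. Leaving out pL 3 gave 16 higher and 17 lower, with a median of -0.08, while 18.2% of all tested genes were then higher and 16.7% lower. Beside SLC18A2 and SYT4, the granule proteins CHGA and CHGB were lower in G2. CHGA had 5218, 5114 and 5043 normalized counts in G2 and 6957, 6564 and 5776 in pL (change -0.32). The rises included ENO2, neuron-specific enolase (397 in G2 and 217 in pL, change 0.87), SEZ6, a neuronal surface protein (904 in G2 and 542 in pL, change 0.76), UCHL1, a neuronal deubiquitinase (change 0.30), and GRP, gastrin-releasing peptide (4323 in G2 and 2930 in pL, change 0.57). DBH, which makes noradrenaline, had a change of 0.86, and its call was lost when G2 2, G2 3 or pL 1 was left out.

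Among 25 tested adhesion molecules of the immunoglobulin superfamily, HEPACAM2 included, 8 were higher and 2 lower in G2, with a median of 0.18. NCAM1, the neural cell adhesion molecule, had 770, 739 and 902 normalized counts in G2 and 520, 512 and 445 in pL (change 0.70, SE 0.09). CEACAM5, carcinoembryonic antigen, averaged 18942 in G2 and 13355 in pL (change 0.51), CEACAM6 561 in G2 and 371 in pL (change 0.59), and CADM1 3888 in G2 and 2947 in pL (change 0.40). JAM3, a junctional adhesion molecule, had a change of 0.21. The other member that fell was CNTN1, contactin (change -0.26). HEPACAM itself had 0 counts in all 6 libraries.

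Integrins, the receptors that bind matrix, were 4 higher and 4 lower of 17 tested. The shares over all tested genes were 9.72% higher and 9.15% lower, and 18.2% and 16.7% without pL 3. ITGA6, a laminin receptor chain, had 895, 912 and 893 in G2 and 429, 375 and 490 in pL (change 1.07, SE 0.09). It lies in the stretch of chromosome 2 from 120 to 180 Mb, outside the bin that passed the threshold. ITGA3, another laminin receptor chain, and ITGAV were also higher (changes 0.39 and 0.29). ITGB8 averaged 75 in G2 and 162 in pL (change -1.10), and ITGA2, a collagen receptor chain, 149 in G2 and 269 in pL (change -0.84). ITGB1, the shared beta chain, had a change of 0.03 (adjusted p = 0.78). Of 40 focal adhesion and actin genes, 9 were higher and 2 lower (17 and 5 without pL 3), with a median of 0.08. Apart from TAGLN2, they included TNS1, a tensin (519 in G2 and 311 in pL, change 0.76), LPP (change 0.44) and CDC42EP3, a Cdc42 effector (change 0.43).

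Matrix genes changed in both directions. Of 25 collagen genes 4 were higher and 3 lower in G2 (8 and 3 without pL 3), with a median of 0.10. The shares over all tested genes were 9.72% higher and 9.15% lower (18.2% and 16.7% without pL 3). The 2 pairs of neighbouring basement membrane collagen genes differed in direction. Against the rises of COL4A1 and COL4A2 given above, COL4A3 had 434, 451 and 388 in G2 and 872, 896 and 870 in pL (change -1.05), and COL4A4 averaged 967 in G2 and 1469 in pL (change -0.60). Of 16 laminin and basement membrane genes 6 were higher and 2 lower, with a median of 0.20. LAMB1 averaged 1048 in G2 and 686 in pL (change 0.63), the proteoglycan HSPG2 965 in G2 and 718 in pL (change 0.43), and LAMB3 5404 in G2 and 4416 in pL (change 0.29). Of 29 matrix glycoproteins and proteoglycans 4 were higher and 7 lower, with a median of -0.08. VTN, vitronectin, and SPP1, osteopontin, were higher (changes 0.66 and 0.57). GPC3 and SDC2, cell-surface proteoglycans, and SMOC1, a SPARC-related protein, were lower (changes -1.12, -1.08 and -0.74). Of 25 proteases and inhibitors 6 were higher and 4 lower. They include MMP15 (161 in G2 and 74.2 in pL, change 1.13), ADAM8 (change 1.02) and SERPINE2, an inhibitor of plasminogen activators (change 1.17).

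Of 34 cadherin and junction genes 6 were higher and 7 lower, beside 9.72% higher and 9.15% lower over all tested genes. CDH2, N-cadherin, averaged 4498 in G2 and 5927 in pL (change -0.40), and the neuronal cadherins CDH12 and CDH18 and the protocadherin PCDH10 were lower as well (changes -0.58, -0.89 and -1.03). JUP, plakoglobin of junctions, averaged 5593 in G2 and 4256 in pL (change 0.40), and DSP, desmoplakin of desmosomes, had a change of 0.22. Of 32 guidance genes 3 were higher and 8 lower, with a median of -0.17. Leaving out pL 3 gave 8 higher and 9 lower, with a median of -0.03. NRP1, a semaphorin receptor, averaged 138 in G2 and 238 in pL (change -0.79), and the ligand SEMA3D had a change of -0.86. EPHA4 rose beside EPHA3 (87.8 in G2 and 40.6 in pL, change 1.11).

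In signalling lists, Notch genes were 6 higher and 3 lower of 27, with a median of 0.12. JAG2, a Notch ligand, averaged 1434 in G2 and 686 in pL (change 1.10), with 590, 540 and 930 in the pL libraries, and its call was lost with no filter and without any of G2 1, G2 2, G2 3 and pL 1. LFNG, which modifies Notch, NRARP and HEY1, targets of Notch, had changes of 0.47, 0.64 and 0.56, while the receptor NOTCH2 had a change of -0.59. HES1, also a target of Notch, was called lower in G2 (change -0.38). The call of HES1 was lost with DESeq2 and without any of G2 1, G2 3, pL 1 and pL 2. Wnt genes were 3 higher and 3 lower of 22 (3 and 7 without pL 3). All tested genes had 9.72% higher and 9.15% lower (18.2% and 16.7% without pL 3). WNT11 averaged 698 in G2 and 289 in pL (change 1.27), and the Wnt antagonist APCDD1 117 in G2 and 294 in pL (change -1.31). Of 32 receptor tyrosine kinase and MAPK feedback genes 7 were higher and 6 lower, with RET and IGF1R higher (changes 0.50 and 0.88) and SPRED1, an inhibitor of MAPK signalling, lower (change -0.72). The call of IGF1R was lost without G2 3.

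Centrosome and mitosis genes had 13 members higher and 1 lower of 45 in G2, with a median of 0.11. The changes were small and the libraries tight. HMMR, a spindle protein, had 2824, 2871 and 2957 in G2 and 2224, 2104 and 2005 in pL (change 0.45, SE 0.05). PTTG1, securin, averaged 2984 in G2 and 2251 in pL (change 0.41), CCNB1, cyclin B1, 4591 in G2 and 3664 in pL (change 0.33), and NEK2, a centrosomal kinase, 1340 in G2 and 1064 in pL (change 0.33). The member that fell, TPX2, lies on chromosome 20 (change -0.20). Without pL 3 the counts were 14 higher and 6 lower. Of 45 replication genes 8 were higher and 4 lower (18 and 9 without pL 3), with a median of 0.06. All tested genes had 9.72% higher and 9.15% lower (18.2% and 16.7% without pL 3).

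Genes of NRF2 and oxidant defence showed the highest share of higher calls among the lists described. Of 35 tested, 15 were higher and 1 lower in G2, with a median of 0.21, and without pL 3 25 were higher and 1 lower. Leaving out pL 3 also raised the calls over all tested genes, from 9.72% to 18.2% higher and from 9.15% to 16.7% lower. TXNRD1, thioredoxin reductase, had 56406, 58363 and 58729 normalized counts in G2 and 40156, 39503.5 and 45304 in pL (change 0.48, SE 0.05). OSGIN1, an oxidative stress gene, averaged 3286 in G2 and 2210 in pL (change 0.58), SRXN1, sulfiredoxin, 3059 in G2 and 2202 in pL (change 0.48), and GSR, glutathione reductase, 5753 in G2 and 4260 in pL (change 0.44). GSR lies in the shifted stretch of chromosome 8, which was higher in G2, and SRXN1 on chromosome 20, which was lower. PGD, FTH1 and TALDO1, of the pentose phosphate pathway and iron storage, had changes of 0.43, 0.37 and 0.32. AKR1C2 was the member that fell (change -0.24).

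**Figure D5:**
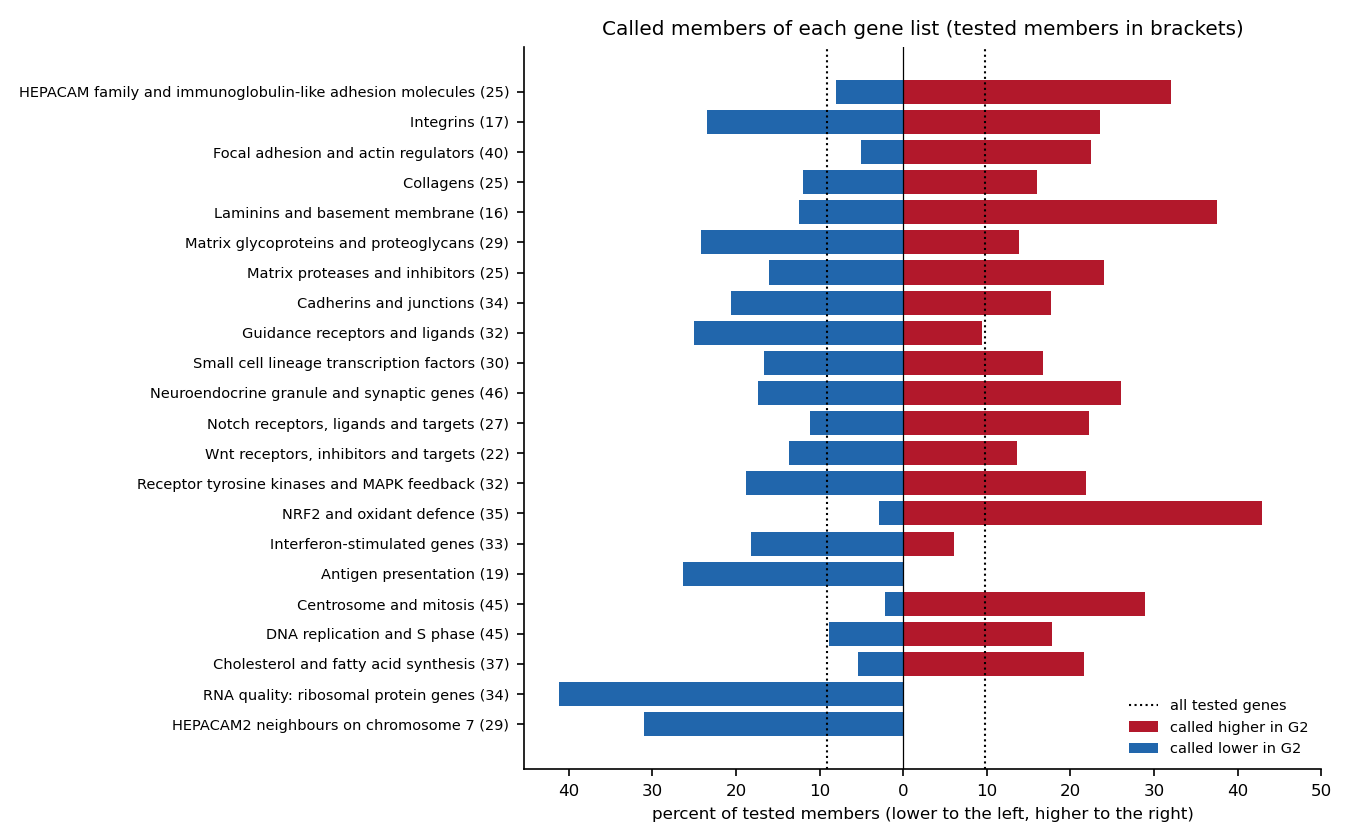
Percent of the tested members of 22 gene lists called lower (left, blue) and higher (right, red) in G2, with the number of tested members in brackets and the share among all tested genes dotted (9.15% lower, 9.72% higher). NRF2 and oxidant defence reaches furthest to the right and ribosomal protein genes furthest to the left; the list of HEPACAM2 neighbours holds 29 genes including HEPACAM2 itself.

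Interferon-stimulated genes had 2 members higher and 6 lower of 33 in G2, with a median of -0.19, and 4 higher and 17 lower without pL 3. The shares over all tested genes were 9.72% higher and 9.15% lower, and 18.2% and 16.7% without pL 3. OAS1, an antiviral RNA-sensing enzyme, had 48.9, 42.4 and 45.9 in G2 and 141, 141 and 91.1 in pL (change -1.40, SE 0.19). OAS3 averaged 429 in G2 and 754 in pL (change -0.79), and IFITM3 11.9 in G2 and 35.5 in pL (change -1.49). IFI27 had 21.7, 14.7 and 22.2 in G2 and 114, 97.7 and 28.2 in pL (change -1.77, adjusted p = 0.042). Its call was lost with edgeR (adjusted p = 0.063), a pseudocount of 5, no filter and without any library other than pL 3. Of 19 antigen presentation genes 0 were higher and 5 lower. HLA-B averaged 3255 in G2 and 4098 in pL (change -0.33) and HLA-C 5711 in G2 and 7039 in pL (change -0.30). These class I genes resemble each other, so reads may be shared between them.

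Ribosomal protein genes, mitochondrial transcripts and replication-dependent histones were taken as signs of RNA quality, and their part in the results was not tested. Of 34 ribosomal protein genes 0 were higher and 14 lower in G2, with a median of -0.12. The 2 largest falls, RPL15 and RPL32, lie at the start of chromosome 3, and the other called members had changes from -0.31 to -0.11. Without pL 3 the counts were 2 higher and 21 lower. The other lists lay on the other side of 0. Of 13 mitochondrial transcripts 0 were called in limma and the arms overlapped in all, with a median of 0.26, and without pL 3 1 was higher, with a median of 0.51. Of 11 tested histone genes 2 were higher and 0 lower, with a median of 0.25. Cholesterol and fatty acid genes were 8 higher and 2 lower of 37. STARD4, a sterol carrier, averaged 349 in G2 and 140 in pL (change 1.31), FADS2, a fatty acid desaturase, 925 in G2 and 434 in pL (change 1.09), and SREBF1, a regulator of lipid synthesis, 1230 in G2 and 796 in pL (change 0.63).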

How the data were processed

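RNA was measured in 6 DMS454 libraries and, for comparison, 6 H1694 libraries of established small cell lung cancer lines. Per the labels' protocols, total RNA was taken with on-column DNase treatment and made into strand-specific libraries. Per the submitters' processing notes, CASAVA, FastQC, Trim Galore, STAR, DESeq2 and the build hg38 were used, and the sources used here give neither their order and versions nor the annotation behind the counts. The signal values per library are normalized counts deposited by the authors, that is read counts divided by size factors. The authors' deposited table also gives log2 fold changes with standard errors and p-values, used here for HEPACAM2 alone. All values were whole reads within 0.01 once multiplied back (100% in every library), which gave the depths. Depth limits precision most for genes under about 50 normalized counts.

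Columns were joined to samples through the sample descriptions. Genes whose mean reached 10 normalized counts in either arm were fitted within DMS454 with limma 3.58.1 (trend and robust settings, R 4.3.3) on log2(normalized count + 1), two-sided, adjusted by Benjamini-Hochberg and called under 0.05. H1694 was fitted in its own table. Adjusted p values are from this limma fit unless edgeR 4.0.16 is named. On simulated data the fit recovered 98% of 100 genes changed by 1 and 61% of 100 changed by 0.5 (log2) among 18868. Only 200 genes were changed there, while 3560 were called in the data. Calls in the data rose to 6605 without the pL library that stood apart. The rates therefore describe the simulated data and are not the share of true changes found in this comparison. Stretches, chromosomes and gene lists are described by counts and medians, with no test. Alternatives were TMM scaling, other filters, a pseudocount of 5, a replicate block, edgeR and DESeq2 1.42.0 on the recovered reads, a change of at least 1, and leaving out each library. Replicate numbers were not used to pair the libraries in the main fit. Deviations of same-numbered libraries correlated at 0.017, 0.027 and 0.0096, and those of other pairs at -0.029 to 0.011. Values this small do not settle whether the libraries were paired.

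Genes named are HEPACAM2, the 15 largest rises and 15 largest falls among called genes with arms that do not overlap and a mean of at least 50 in the higher arm, the 8 largest of each among genes with a mean of at least 1000 in both arms, up to 6 called members of each list, and set lineage genes. Clone, antisense and pseudogene names, XIST and chromosome Y genes were left out. Some genes that the rule names are not reported here. Other genes named in stretches and lists were chosen after their values were seen. The members and lists were chosen with earlier results of these data known. Positions and names are from GENCODE 29 and a table of gene names, which matched 100.0% of identifiers. Duplicate pseudoautosomal rows, 45 with 0 reads, were left out.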

Additional observations from a re-analysis of the deposited data

Results flagged for a closer look

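Of the tested genes named above, 179 were counted here, and 138 of those were also tested in H1694. The arms did not overlap in either line in 75 of them, and in 34 of these the directions were opposite, with every G2 library on one side of pL in DMS454 and every G6 library on the other side of pL in H1694. Of the 34, 23 were called in both lines. Over all 15460 genes tested in both lines, the arms did not overlap in either line in 2305 (14.9%). In 1201 of those 2305 (7.77% of all) the directions were opposite, so opposite directions were common wherever both arms were apart. The named genes were mostly chosen for their DMS454 change, so nothing is read from the count of 34. The difference between the lines was not tested for any gene, since the tables were normalized separately. Changes below are G2 minus pL for DMS454 and G6 minus pL for H1694.

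Reversals called in both lines included matrix, guidance and lipid genes and DBH, and they are grouped here by role and not by size. COL4A3 had a change of -1.05 in DMS454 and 2.06 in H1694, where it averaged 70.8 normalized counts in G6 and 18.4 in pL. COL4A4 had -0.60 in DMS454 and 1.37 in H1694, with 272 in G6 and 105 in pL. NRP1 had -0.79 in DMS454 and 1.55 in H1694, with 285 in G6 and 96.9 in pL. SREBF1 had 0.63 in DMS454 and -1.32 in H1694, with 1375 in G6 and 3435 in pL. DBH had 0.86 in DMS454 and -1.03 in H1694, with 125 in G6 and 258 in pL. STARD4 had 1.31 in DMS454 and -0.43 in H1694, and FADS2 1.09 in DMS454 and -0.27 in H1694. SMOC1 had -0.74 in DMS454 and 0.60 in H1694.

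Secretory and neuronal genes called in both lines were CALB2 (-1.45 in DMS454, 0.41 in H1694), SYT4 (-0.82 in DMS454, 0.33 in H1694) and CHGB (-0.27 in DMS454, 0.58 in H1694). The Notch genes LFNG (0.47 in DMS454, -0.59 in H1694), HEY1 (0.56 in DMS454, -0.49 in H1694) and NRARP (0.64 in DMS454, -0.38 in H1694) were higher in G2 and lower in G6. So were the ligands MDK (1.16 in DMS454, -0.18 in H1694) and GAS6 (1.08 in DMS454, -0.22 in H1694), the receptor EPHA4 (1.11 in DMS454, -0.16 in H1694) and the RNA-binding protein MSI1 (1.58 in DMS454, -0.23 in H1694). DSP (0.22 in DMS454, -0.20 in H1694), ARHGEF7 (0.51 in DMS454, -0.17 in H1694) and NEK2 (0.33 in DMS454, -0.17 in H1694) went the same way. CDK6 (-0.72 in DMS454, 0.28 in H1694) and HLA-C (-0.30 in DMS454, 0.35 in H1694) were lower in G2 and higher in G6.

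The other 11 were not called in H1694. They were PCDH10 (-1.03 in DMS454, 1.07 in H1694), GPC3 (-1.12 in DMS454, 0.29 in H1694), CDH18 (-0.89 in DMS454, 0.46 in H1694), ITGA2 (-0.84 in DMS454, 0.27 in H1694), NKIRAS1 (-1.05 in DMS454, 0.34 in H1694) and OGG1 (-0.60 in DMS454, 0.13 in H1694). IFI27 had -1.77 in DMS454 and 0.34 in H1694, and NEUROD1 -0.71 in DMS454 and 0.04 in H1694. CHGA had -0.32 in DMS454 and 0.11 in H1694, and CNTN1 -0.26 in DMS454 and 0.09 in H1694. INSM1, called in neither line, had 0.056 in DMS454 and -0.19 in H1694.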

How the results depend on the processing

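The change of HEPACAM2 ran from -0.79 to -0.75 over all alternatives and stayed called in each. Called genes numbered 1834 higher and 1726 lower in G2, and 1886 higher and 1707 lower with the replicate block. A change of at least 1 left 205 higher and 142 lower. Leaving out 1 library gave 1017 to 3446 higher and 947 to 3159 lower genes, both highest without pL 3. The median change of chromosome 20, -0.19, ran from -0.22 to -0.17 when 1 library was left out, and those of chromosome 13 and of the first 20 Mb of chromosome 3 moved by less than the spread between libraries under every alternative. Leaving out the shifted bins and chromosomes 13 and 20, an alternative added after the values were seen, gave 1665 higher and 1450 lower genes. Most of the chromosome 2 stretch stayed in. No value changed sign among called named genes. Of 166 called named genes other than HEPACAM2, 38 lost the call under at least 1 alternative, 27 of them only when a library was left out. The cause was not tested. By setting, 9 lost it with no filter, 3 with DESeq2, 2 with edgeR, 1 with a pseudocount of 5 and 1 with the replicate block. With 3 libraries an arm and 1 of them apart, small changes are the least certain, and p-values measure the spread between these libraries.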
